A study of Homo sapiens with 4 samples.

Results

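Acetylcholine is the main excitatory transmitter of enteric neurons, released both between neurons and onto gut smooth muscle. 4 genes that carry out its turnover at the nerve ending were followed here in enteric ganglioids: CHAT, SLC18A3, SLC5A7 and ACHE. Choline acetyltransferase, encoded by CHAT, joins choline to an acetyl group taken from acetyl-CoA. The vesicular acetylcholine transporter, encoded by SLC18A3, loads the product into synaptic vesicles. The high-affinity choline transporter, encoded by SLC5A7, returns choline to the terminal after acetylcholinesterase, encoded by ACHE, has split the transmitter outside the cell. The 4 genes were chosen by name, with earlier results of these data known. They were found in the count matrix of each of the 4 samples and stand among 36601 features.

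Single-nucleus RNA-seq was performed on stage 1 enteric ganglioids, free-floating aggregates made through enteric neural crest from H9, an established human embryonic stem cell line, so that all samples come from 1 line. The 2 control samples received no compound and the 2 PP121 samples received 2 µM PP121, an inhibitor of tyrosine kinases and of phosphoinositide 3-kinases, from day 15 to day 20. Each group held differentiation replicates 1 and 2. The deposited annotation dates replicate 1 of both groups to day 42 and replicate 2 of both to day 38, so the differentiation and the day cannot be told apart. Of 25306 deposited nuclei, 14812 carried a cell class and were used, between 2912 and 4587 in each sample, with a median of 6289 to 7071 unique molecular identifiers (UMIs, each counting 1 captured RNA molecule) per nucleus. Pairs of libraries shared 0 to 8 barcodes among these nuclei. Enteric neurons numbered 2301 in control replicate 1, 1250 in control replicate 2, 2030 in PP121 replicate 1 and 976 in PP121 replicate 2. All 11 listed neuronal markers were detected in them, with summed levels of 7822 to 10785 CPM, that is UMIs of a gene per 1000000 UMIs of the same nuclei, against 974 to 2101 CPM in the nuclei labelled Progenitor 1 and Progenitor 2. The 7 progenitor markers summed to 1914 to 2434 CPM in Progenitor 2 but to 649 to 934 CPM in Progenitor 1, so the latter label rests on weaker marker support.

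The positions of the genes matter for how their reads can be counted. On GRCh38, CHAT (ENSG00000070748) spans chr10:49609095-49665104 on the plus strand. SLC18A3 (ENSG00000187714), a gene with a single transcript at chr10:49610301-49612720, lies on the same strand inside CHAT, between the end of the first exon of transcript CHAT-202 at 49609199 and its next exon at 49616502. No annotated CHAT exon overlaps it, yet nuclear RNA holds unspliced transcripts, so reads from a long unspliced CHAT transcript and from SLC18A3 may not be told apart there. SLC5A7 (ENSG00000115665) spans chr2:107986523-108013994 on the plus strand and ACHE (ENSG00000087085) spans chr7:100889994-100896974 on the minus strand. The sequences just before the first listed starts of the synthesis gene and of the vesicular and choline transporters are given here. A link between these sequences and the levels of the genes was not tested. Each window runs from 250 to 11 bases before a RefSeq start (GRCh38.p14, plus strand), at chr10:49608845-49609084 for CHAT, chr10:49610060-49610299 for SLC18A3 and chr2:107986274-107986513 for SLC5A7. Capitals mark matches to the core of the cAMP response element (TGACG, or CGTCA when read on the other strand) and to the TATA box (TATAAA, or TTTATA on the other strand).
CHAT: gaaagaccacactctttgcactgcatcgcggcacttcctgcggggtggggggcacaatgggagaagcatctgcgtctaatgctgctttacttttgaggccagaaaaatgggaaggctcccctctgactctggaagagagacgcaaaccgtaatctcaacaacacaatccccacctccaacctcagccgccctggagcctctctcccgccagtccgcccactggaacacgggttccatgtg
SLC18A3: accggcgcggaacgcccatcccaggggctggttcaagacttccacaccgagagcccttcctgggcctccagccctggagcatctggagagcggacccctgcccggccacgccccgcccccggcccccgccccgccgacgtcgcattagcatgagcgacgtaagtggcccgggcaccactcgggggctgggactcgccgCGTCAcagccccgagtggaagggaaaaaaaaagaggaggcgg
SLC5A7: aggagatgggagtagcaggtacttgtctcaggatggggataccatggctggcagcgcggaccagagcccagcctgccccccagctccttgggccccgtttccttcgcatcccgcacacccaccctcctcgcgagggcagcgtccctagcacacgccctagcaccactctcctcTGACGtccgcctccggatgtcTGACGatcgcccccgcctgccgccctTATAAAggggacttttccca
The SLC5A7 window held 2 such cores, 77 and 56 bases before the start, and a TATA box 30 bases before it. The SLC18A3 window held 1 core on the reverse strand, 52 bases before the start. The CHAT and ACHE windows, 3 for each gene, held neither motif, and no window of the 4 genes held the homeodomain core TAATTA. Across 34943 RefSeq windows of the same length, 20.4% held the core, 10.6% the TATA box and 4.30% the homeodomain core.

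CHAT was detected mainly in enteric neurons. Its level in neurons was 19.4 CPM (368 UMIs in 254 nuclei) in control replicate 1, 16.8 CPM (186 UMIs in 107 nuclei) in control replicate 2, 17.5 CPM (295 UMIs in 186 nuclei) in PP121 replicate 1 and 5.83 CPM (51 UMIs in 33 nuclei) in PP121 replicate 2. 3 of these samples lay close together, and PP121 replicate 2 lay below them. In Progenitor 1 the level of CHAT ranged from 0 to 1.01 CPM, in Progenitor 2 from 0.772 to 3.36 CPM and in mesenchymal nuclei from 0 to 0.276 CPM, so that neurons stood above each of these classes in 4 of 4 samples. The mean level in neurons was 14.9 ± 6.14 CPM (SD, n = 4).

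SLC18A3 was captured rarely. Neurons held 23 UMIs in control replicate 1, 8 in control replicate 2, 21 in PP121 replicate 1 and 5 in PP121 replicate 2, which corresponds to 1.21, 0.721, 1.25 and 0.571 CPM. Both day 42 samples lay above both day 38 samples, as for 20.4% of all genes tested in neurons. The counting intervals of the days overlapped, for example 0.772 to 1.91 CPM in PP121 replicate 1 and 0.311 to 1.42 CPM in control replicate 2. No UMI of the vesicular transporter was found in Progenitor 1 of any sample, and in Progenitor 2 its level was 0 to 0.336 CPM. A single UMI in the 33 mesenchymal nuclei of PP121 replicate 1 gave a level of 3.36 CPM, which rests on 1 molecule.

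SLC5A7 was also higher in neurons than in the other named classes of each sample, with 4.27 CPM (81 UMIs in 33 nuclei) in control replicate 1, 20.2 CPM (224 UMIs in 44 nuclei) in control replicate 2, 6.48 CPM (109 UMIs in 46 nuclei) in PP121 replicate 1 and 12.8 CPM (112 UMIs in 27 nuclei) in PP121 replicate 2. Here both day 38 samples lay above both day 42 samples, as for 17.7% of all genes tested in neurons. The progenitor classes held 0.253 to 2.42 CPM. Mesenchymal nuclei held no SLC5A7 UMI in 3 samples and 8.35 CPM in PP121 replicate 2, where 29 UMIs came from 8 nuclei and 19 of them from 1 nucleus.

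ACHE differed from the other 3 genes in its distribution over classes. Its level in neurons was 10.1 and 10.6 CPM in control replicates 1 and 2 and 9.21 and 7.77 CPM in PP121 replicates 1 and 2, a mean of 9.44 ± 1.26 CPM (SD, n = 4). In Progenitor 1 it was 14.4, 16.1, 19.1 and 10.8 CPM in the same order, above the neurons of the same sample in 4 of 4 samples. Progenitor 2 held 2.16 to 6.05 CPM, below the neurons in 4 of 4 samples. Nuclei of Progenitor 1 held fewer UMIs in all than neurons (median 5307 against 7498). When each nucleus was thinned at random to 2000 UMIs, ACHE was detected in 1.72%, 2.49%, 3.58% and 1.41% of Progenitor 1 nuclei and in 2.36%, 1.92%, 2.12% and 1.64% of neurons, so that Progenitor 1 stood above neurons in 2 of 4 samples on that measure. The order of these classes for ACHE therefore depends on the measure. No test was made between classes, which were defined by clustering the same nuclei.

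**Figure D1:**
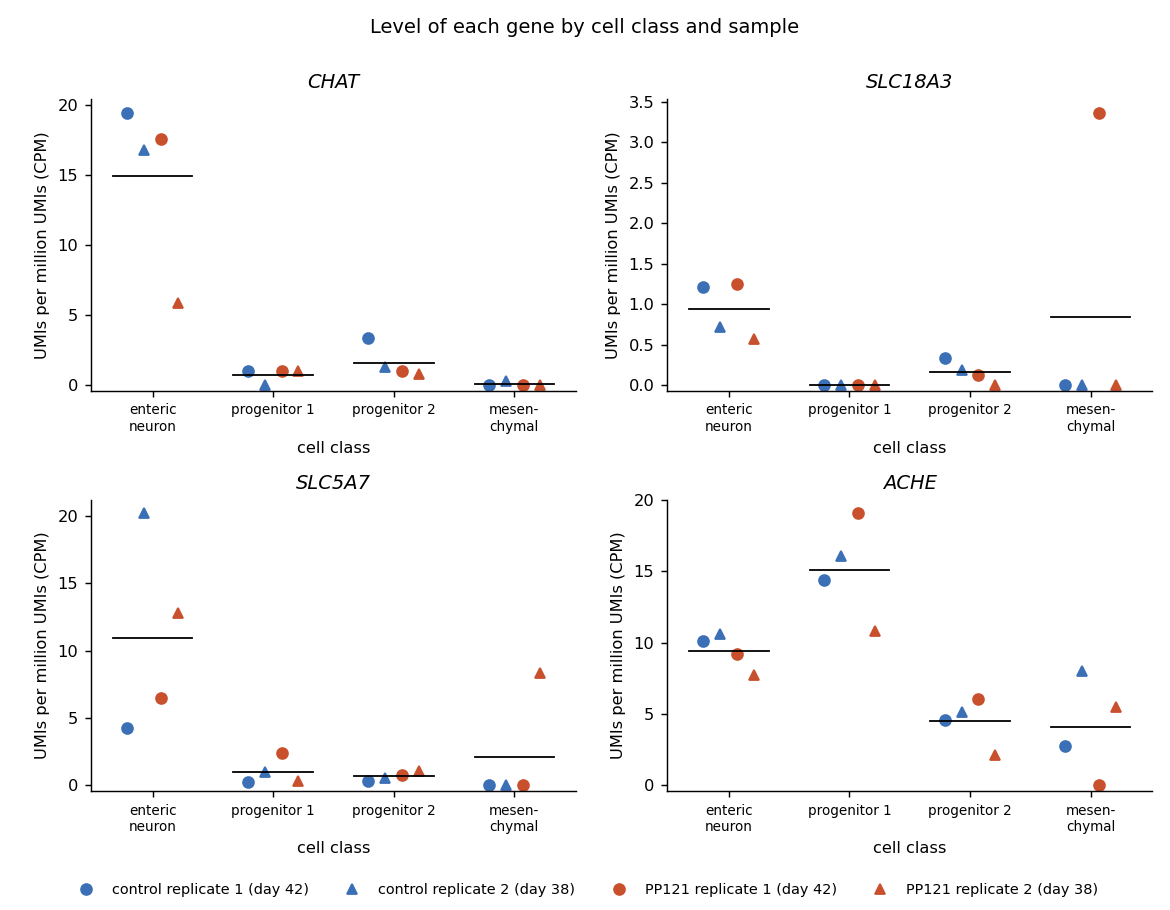
Level of CHAT, SLC18A3, SLC5A7 and ACHE (CPM, y axis, a separate scale in each panel) in 4 cell classes (x axis); each point is 1 sample and the bar is the mean of 4. CHAT lies between 5.83 and 19.4 CPM in neurons and at or below 3.36 CPM in progenitors, whereas ACHE reaches 10.8 to 19.1 CPM in Progenitor 1.

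Transmitter identities in the deposited annotation allow a neuron to carry more than 1 label. How the cholinergic label was set is not given in the sources used here, and it may rest on the genes described, so levels by identity are a description. CHAT in cholinergic neurons was 48.0 CPM in control replicate 1, 70.7 CPM in control replicate 2, 50.4 CPM in PP121 replicate 1 and 54.0 CPM in PP121 replicate 2. PP121 replicate 2 thus lay within the range of the other samples. The level with PP121 was 1.05 times that in control on day 42 and 0.764 times on day 38. Because the label may rest on CHAT, these levels cannot show whether CHAT RNA per expressing neuron differed. GABAergic neurons, which release the inhibitory transmitter GABA, followed with 26.9, 43.0, 34.8 and 22.2 CPM. The 2 groups overlap: 1394 of the 2377 GABAergic neurons also carried the cholinergic label. They held 618 of the 655 CHAT UMIs of GABAergic neurons. In neurons labelled nitrergic, after the inhibitory motor neurons that make nitric oxide, CHAT was 4.64 to 9.14 CPM. It was below the remaining neurons in 4 of 4 samples. Of the 1128 nitrergic neurons, 134 also carried the cholinergic label, and these held 55 of the 68 CHAT UMIs of nitrergic neurons. The paper gave the nitrergic label to neurons positive for NOS1, the neuronal nitric oxide synthase gene, and for a score of related genes. Its default was imputed expression, so a labelled nucleus need not hold a NOS1 UMI.

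SLC18A3 was 3.16 and 1.72 CPM in cholinergic neurons of control replicates 1 and 2 and 2.96 and 5.03 CPM in those of PP121 replicates 1 and 2, above the remaining neurons in 4 of 4 samples. In nitrergic neurons it was 0 to 0.508 CPM. The vesicular transporter thus followed the CHAT pattern, within the limits of 5 to 23 molecules per sample.

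SLC5A7 was distributed otherwise. Nitrergic neurons held 17.8, 35.5, 20.7 and 45.3 CPM in the 4 samples in the same order, above the remaining neurons in 4 of 4 samples. Cholinergic neurons held 3.79, 47.4, 2.96 and 12.6 CPM and stood above the remaining neurons in 2 of 4 samples. The 134 neurons with both labels held 59 SLC5A7 UMIs, of 239 in nitrergic and 159 in cholinergic neurons. GABAergic neurons held 0.144 to 2.86 CPM. Cholinergic neurons that also carried the GABAergic label held 0.210, 1.64, 0.211 and 0 CPM, whereas cholinergic neurons without the GABAergic label held 14.5, 221, 43.2 and 44.8 CPM. The former values come from 1, 1, 1 and 0 nuclei with an SLC5A7 UMI and the latter from 1, 7, 4 and 3, so that the level of 14.5 CPM rests on a single nucleus with 23 UMIs. CHAT was 48.0, 68.1, 49.6 and 52.4 CPM in the former and 47.9, 80.5, 61.6 and 58.2 CPM in the latter.

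ACHE varied less between identities. It was 5.996, 12.1, 6.52 and 8.80 CPM in cholinergic neurons, 9.68, 9.14, 7.76 and 9.29 CPM in nitrergic neurons and 13.5, 15.4, 11.6 and 7.17 CPM in catecholaminergic neurons. The ranges over samples overlapped. Within each sample, however, catecholaminergic neurons stood above the remaining neurons, which held 9.42, 8.01, 8.17 and 6.72 CPM. GABAergic and serotonergic neurons each stood below the remaining neurons of the same sample. For cholinergic, nitrergic and glutamatergic neurons the order differed between samples. None of these orders was tested.

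**Figure D2:**
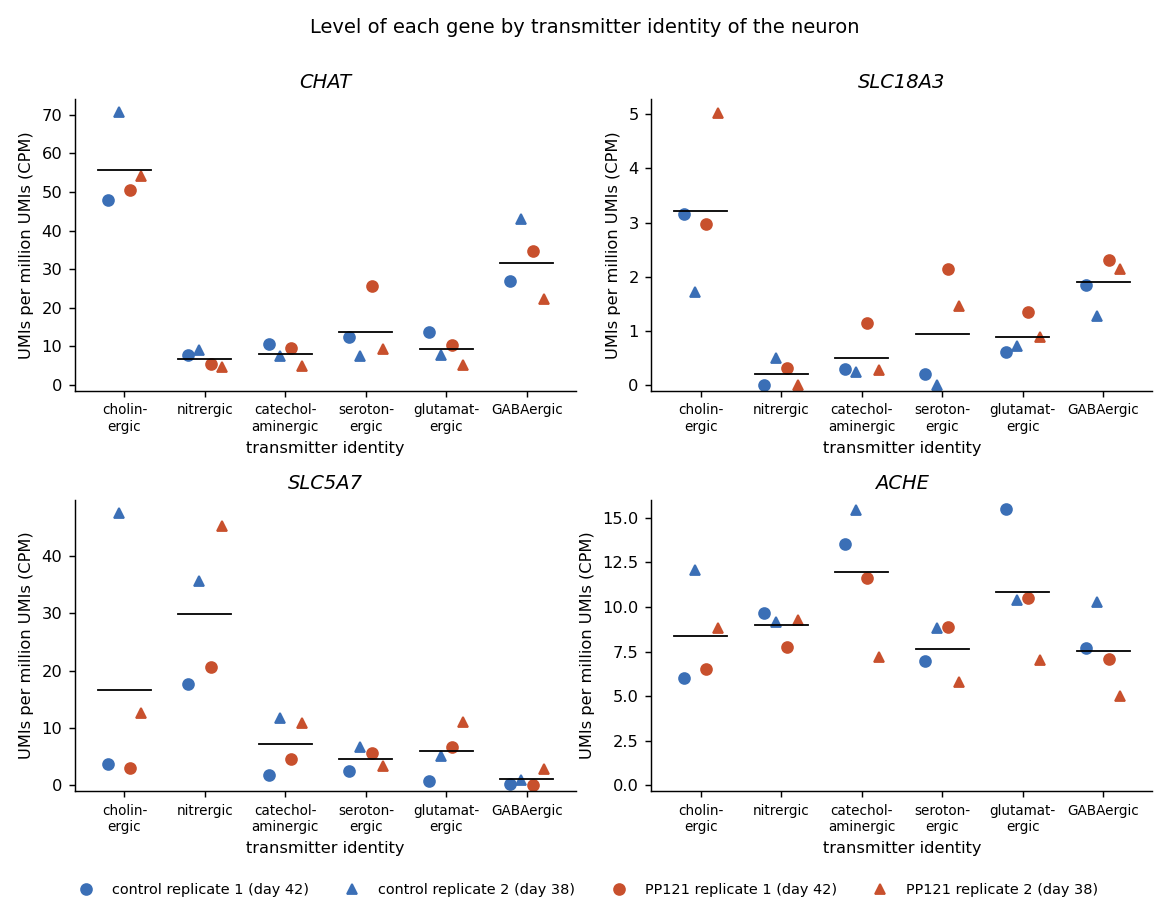
Level of each gene (CPM, y axis, a separate scale in each panel) in neurons of 6 deposited transmitter identities (x axis); each point is 1 sample and the bar is the mean of 4. CHAT is highest in cholinergic neurons (48.0 to 70.7 CPM), and SLC5A7 in nitrergic neurons lies between 17.8 and 45.3 CPM.

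The cholinergic label and detection of the member genes overlapped in part. Of 1740 cholinergic neurons, 484 (27.8%) held a CHAT UMI and 1169 (67.2%) held no UMI of any of the 4 genes. Conversely, 87.2% of 555 annotated neurons with a CHAT UMI and 80.8% of 52 with an SLC18A3 UMI were labelled cholinergic. The share was 12.7% of 142 for SLC5A7 and 20.7% of 439 for ACHE.

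Neuron subtypes were annotated by the authors separately in control (EN 1 to EN 8) and PP121 samples (EN A to EN I). CHAT was concentrated in 1 subtype of each set. EN 3 held 51.4 CPM in control replicate 1 and 73.8 CPM in control replicate 2, with 46.6% and 48.9% of the CHAT UMIs of subtyped neurons in 17.6% and 10.7% of those neurons. EN C held 64.2 CPM in PP121 replicate 1 and 76.9 CPM in PP121 replicate 2, with 50.9% and 46.0% of the CHAT UMIs in 13.9% (262 nuclei) and 3.93% (36 nuclei) of the neurons. EN B, which held 26.0% of the CHAT UMIs of PP121 replicate 1, had 26.1 CPM there (348 nuclei) and 3.85 CPM in PP121 replicate 2 (119 nuclei). The levels in PP121 replicate 2 rest on 23 CHAT UMIs in EN C and 4 in EN B. SLC18A3 was 3.63 and 2.51 CPM in EN 3 and 3.80 and 6.69 CPM in EN C.

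SLC5A7 was found in other subtypes. EN 3 held 0 and 2.51 CPM and EN C 0.476 and 0 CPM. EN 8 held 56.5 and 24.9 CPM in control replicates 1 and 2, EN H 23.1 and 8.30 CPM, EN I 67.1 and 45.2 CPM and EN A 4.41 and 18.5 CPM in PP121 replicates 1 and 2. EN A, with 39.1% of the SLC5A7 UMIs of PP121 replicate 2, held the largest share of any subtype in that sample. This share rests on 34 UMIs in 7 nuclei, 18 of them in 1 nucleus, beside 32 UMIs in 11 nuclei for EN I. In PP121 replicate 1, 11 of the 13 UMIs of EN A came from 1 nucleus. EN 4 differed between its samples, with 15.7 CPM in control replicate 1, all 23 UMIs coming from 1 nucleus, and 97.5 CPM in control replicate 2, where 178 UMIs in 17 nuclei made up 79.5% of the SLC5A7 UMIs of subtyped neurons. For ACHE, EN 1 held 17.4 and 14.5 CPM and EN A 16.9 and 8.69 CPM.

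Over 28 sums of nuclei, 1 for each sample and subtype with at least 50 nuclei, Pearson's r of log2(CPM + 1) was 0.84 between CHAT and SLC18A3 and -0.38 between CHAT and SLC5A7. ACHE had r of 0.25 with CHAT and 0.36 with SLC5A7. These sums share libraries, and those from 1 sample share its depth, so the correlations are a description. Among 11294 genes with a mean of at least 10 CPM, the genes whose pattern was most like CHAT were AC016168.2 (r = 0.88), PRUNE2 (0.84), GCNT1 (0.84), AFF2 (0.84) and PLD5 (0.83). For SLC18A3 they were CHAT (0.84), the homeobox gene HOXB3 (0.80), HOXB-AS3 (0.78), CHML (0.77) and TNS3 (0.77). The sums for SLC18A3 held only 0 to 12 UMIs each, so this ranking is uncertain. Its r with CHAT may also include reads of unspliced CHAT RNA, which was not tested. For SLC5A7 they were AC104009.1 (r = 0.84), MAP7 (0.81), RBMS1 (0.81), the vesicular glutamate transporter gene SLC17A6 (0.79) and NRN1 (0.77). For ACHE they were the kainate receptor gene GRIK4 (r = 0.76), PTPRN (0.74), TCP11L1 (0.74), UBE4B (0.73) and CYB5R1 (0.72).

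**Figure D3:**
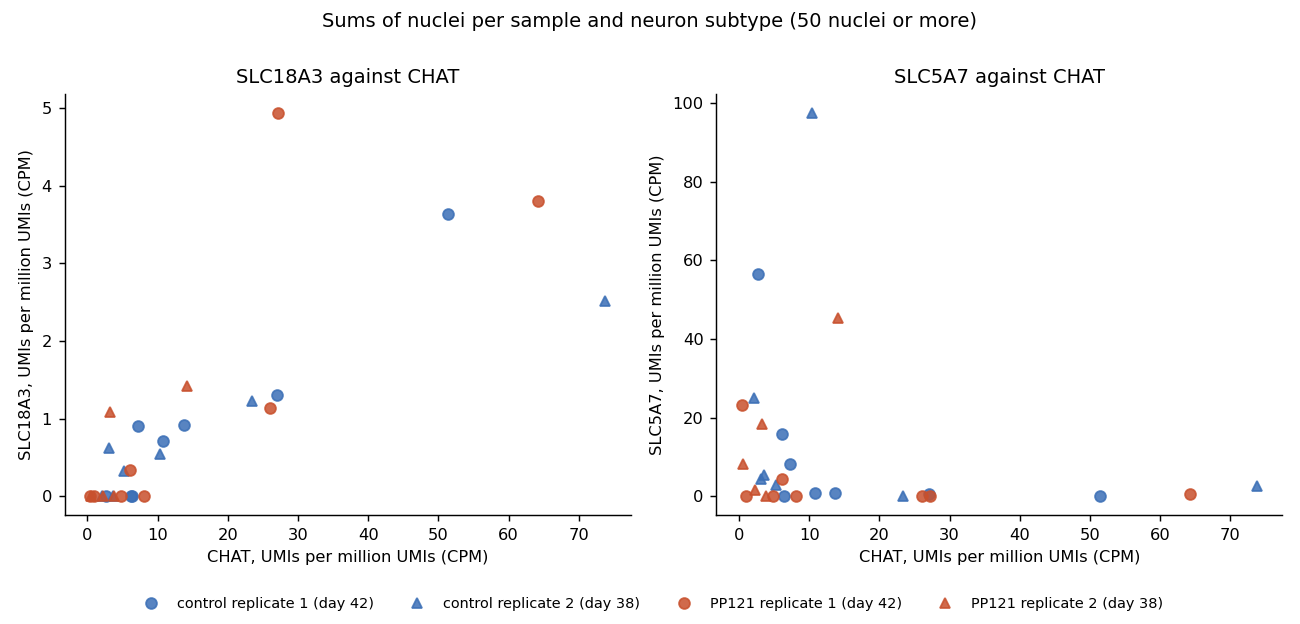
Level of SLC18A3 (left) and SLC5A7 (right) against that of CHAT, all in CPM, in 28 sums of nuclei per sample and neuron subtype (1 point each). SLC18A3 rises with CHAT (r = 0.84 on the log2 scale), whereas the points with the highest SLC5A7, up to 97.5 CPM, lie at low CHAT (r = -0.38).

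Detection in the same nucleus was then compared. Of 56 neurons with an SLC18A3 UMI, 23 (41.1%, exact 95% interval 28.1 to 55.0%) also held a CHAT UMI, against 8.57% of neurons without one. Of 150 neurons with an SLC5A7 UMI, 10 (6.67%, interval 3.24 to 11.9%) held CHAT, against 8.90% of the others, a share inside that interval. ACHE gave 41 of 465 neurons with CHAT (8.82%) against 8.85%. Neurons with a UMI of a member gene held more UMIs in all than those without, with medians of 9544 against 7304 for CHAT, 8932 against 7466 for SLC18A3, 8830 against 7464 for SLC5A7 and 9119 against 7395 for ACHE. These intervals cover counting error alone, and the nuclei come from 4 samples.

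Genes of other transmitters were compared in the same way. GAD2, which encodes a GABA-synthesizing glutamate decarboxylase, was detected in 62.4% of neurons with CHAT and in 28.2% of those without. SLC17A6 was detected in 3.79% of neurons with CHAT and in 14.3% of those without. For SLC5A7 the pattern was the opposite, with SLC17A6 in 62 of 150 neurons (41.3%) against 12.7% and GAD2 in 7.33% against 31.8%. NOS1, which encodes neuronal nitric oxide synthase, was found in 5.33% of neurons with SLC5A7 and in 2.12% of those without.

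SLC5A7 molecules were concentrated in few nuclei. Neurons with at least 5 SLC5A7 UMIs numbered 3 in control replicate 1, 11 in control replicate 2, 5 in PP121 replicate 1 and 6 in PP121 replicate 2, and held 44.4%, 76.3%, 41.3% and 60.7% of the SLC5A7 UMIs of all neurons. The highest nucleus held 23, 56, 11 and 25 UMIs in the same order. At least 5 CHAT UMIs were found in 2, 3, 3 and 0 neurons, and no neuron held as many of SLC18A3 or ACHE. Counting a further mesenchymal nucleus, 26 nuclei held at least 5 SLC5A7 UMIs, with a median of 12791.5 UMIs in all. Of these, 7 held a CHAT UMI, 0 an SLC18A3 UMI, 5 an ACHE UMI and 2 a NOS1 UMI. By label, 14 were nitrergic, 8 cholinergic, 8 glutamatergic and 0 GABAergic. A level of SLC5A7 summed over neurons thus rests on 3 to 11 nuclei of a sample for 41.3% to 76.3% of its molecules.

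**Figure D4:**
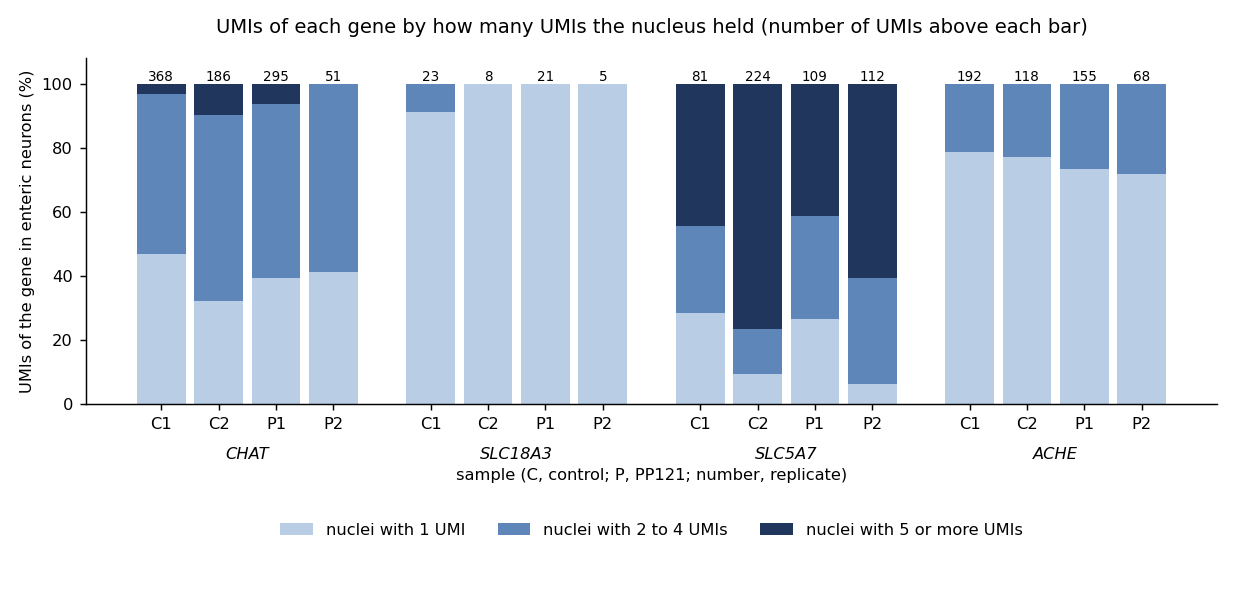
Share of each gene's UMIs in enteric neurons (percent, y axis) that came from nuclei with 1, with 2 to 4 or with 5 or more UMIs of that gene, for each sample (x axis; C, control; P, PP121), with the number of UMIs above each bar. Nuclei with 5 or more UMIs supply 41.3% to 76.3% of SLC5A7 and at most 9.68% of CHAT.

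The main comparison of the study was PP121 against control. Counts were summed over the enteric neurons of each sample and tested over all 21243 genes that passed the filter on low counts, with edgeR's quasi-likelihood test and Benjamini-Hochberg adjustment. In such sums, fewer neurons that express a gene and less RNA per expressing neuron cannot be told apart. No gene was called at an adjusted p below 0.05 (0% called), though 2549 genes had an unadjusted p below 0.05 and DESeq2 called 80. With the replicate number as a block, which compares samples of the same day, 3152 genes were called (14.8%), 7.97% higher and 6.86% lower. All 4 genes passed the filter. Of them, none was called without the block and 1, CHAT, was called lower with it, beside the 14.8% of all genes.

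CHAT differed by -0.56 on the log2 scale between PP121 and control (SE 0.41, edgeR adjusted p = 0.606) without the block. With it the estimate was -0.63 (SE 0.21, edgeR adjusted p = 0.0370). The 2 days contributed unequally. On day 42 the level in PP121 was 0.903 times that in control and on day 38 it was 0.347 times, and the groups overlapped because PP121 replicate 1 lay above control replicate 2. Without PP121 replicate 2 the log2 fold change was -0.036, and without PP121 replicate 1 it was -1.57 (edgeR adjusted p = 0.000798). In each of these fits 1 PP121 sample is set against 2 controls, and it is assumed to vary as they do. With the block the call was lost when doublet candidates were left out (adjusted p = 0.109) and in DESeq2 (adjusted p = 0.252).

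SLC18A3 differed by -0.01 on the log2 scale (SE 0.53, edgeR adjusted p = 0.997), and its groups overlapped. SLC5A7 had -0.31 (SE 0.69, edgeR adjusted p = 0.879), and its ratio on the log2 scale was 0.60 on day 42 and -0.66 on day 38. The sign thus differed between the days. ACHE had -0.25 (SE 0.20, edgeR adjusted p = 0.649) and was lower in both PP121 samples than in both control samples, as were 23.1% of all genes tested. With the block, SLC18A3 (edgeR adjusted p = 0.977), SLC5A7 (0.916) and ACHE (0.463) were again not called.

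The share of neurons with a UMI, after thinning every nucleus to 2000 UMIs, described the same samples without the weight of single rich nuclei. For CHAT it was 3.58% (82 of 2291) in control replicate 1, 3.29% (41 of 1247) in control replicate 2, 3.16% (64 of 2024) in PP121 replicate 1 and 1.33% (13 of 974) in PP121 replicate 2. Both PP121 samples lay below both controls, by 1.19 percentage points in the mean (3.43 ± 0.21% against 2.25 ± 1.29%, SD, n = 2 each), with a two-sided exact permutation p of 0.3333, the smallest that 2 against 2 samples allow, and 0.889 after adjustment over the 4 genes. The separation depended on the depth, since PP121 replicate 1 lay above control replicate 2 at 1000 UMIs (1.77% against 1.76%), at 4000 UMIs (5.50% against 4.81%) and without thinning (9.16% against 8.56%). The share was 0.262%, 0.160%, 0.247% and 0.103% for SLC18A3 (exact permutation p = 0.667, n = 2 each). For SLC5A7 it was 0.524%, 1.92%, 0.889% and 1.54% (exact permutation p = 1, n = 2 each). ACHE had 2.36%, 1.92%, 2.12% and 1.64% (exact permutation p = 0.667, n = 2 each). As a background, 0 of 898 mesenchymal nuclei held CHAT after the same thinning, which allows a share of up to 0.334% (median depth 7688.5 against 7498 UMIs in neurons), and 0.105% of Progenitor 1 nuclei did. For SLC18A3, 14 of 6536 neurons held a UMI (0.214%, exact 95% interval 0.117 to 0.359%), against 0 of 2857 Progenitor 1 nuclei, which allows up to 0.105%, and 0 of 3776 Progenitor 2 nuclei, which allows up to 0.0794%. The mesenchymal limit lies inside that interval. For SLC5A7, 0.245% of Progenitor 1 and 0.053% of Progenitor 2 nuclei held a UMI, and all 5 mesenchymal nuclei with one came from PP121 replicate 2 (1.19% of 420). For ACHE it was 1.45% of mesenchymal nuclei, so its shares in neurons stood little above that level.

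The share of neurons labelled cholinergic was 33.6% (768 of 2285) in control replicate 1, 20.4% (252 of 1234) in control replicate 2, 33.2% (627 of 1887) in PP121 replicate 1 and 10.2% (93 of 915) in PP121 replicate 2. The groups overlapped, and the mean difference of -5.32 percentage points had a two-sided exact permutation p of 0.667 (n = 2 each). On day 42 the difference was -0.38 points and on day 38 it was -10.3 points.

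**Figure D5:**
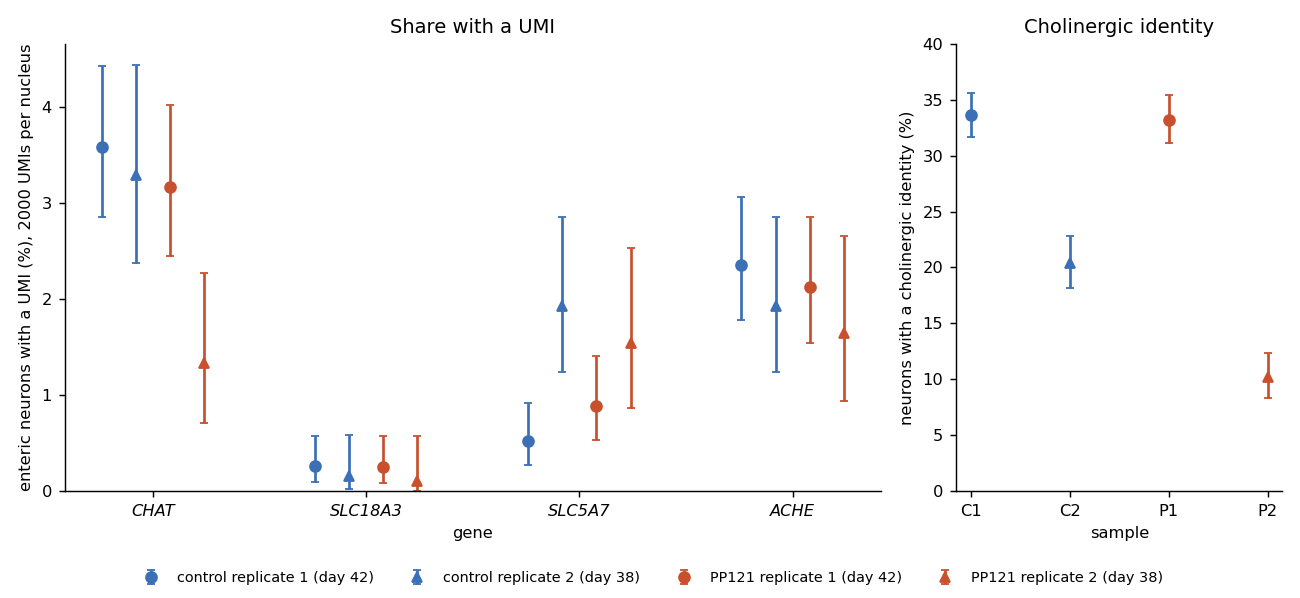
Left, share of enteric neurons with a UMI of each gene after thinning to 2000 UMIs per nucleus (percent, y axis); right, share of neurons with a cholinergic identity (percent). Points are samples and bars are exact 95% binomial intervals, which cover counting error alone. The CHAT share is 3.16% to 3.58% in 3 samples and 1.33% in PP121 replicate 2, and the cholinergic share of that sample, 10.2%, is also the lowest.

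Replicate 1 (day 42) was also compared with replicate 2 (day 38) in neurons, with the treatment as a term. Differentiation and day coincide here, so the p-values do not measure the spread between differentiations. Here 2015 of 21243 genes were called (9.49%), 3.68% higher and 5.81% lower on day 42, and 2 of the 4 genes were among them. SLC5A7 fell by 1.68 on the log2 scale from day 38 to day 42 samples (SE 0.22, edgeR adjusted p = 6.50e-06). The samples of the days did not overlap, as was so, in the same direction, for 17.7% of all genes. CHAT rose by 0.72 (SE 0.21, edgeR adjusted p = 0.0263), also with no overlap of the days, as for 20.4% of all genes in that direction. SLC18A3 had a log2 difference of 0.85 (edgeR adjusted p = 0.320) and ACHE of 0.01 (edgeR adjusted p = 0.977). For CHAT the call was lost in DESeq2 (adjusted p = 0.348), without doublet candidates (adjusted p = 0.0827) and, when 1 sample was left out, without control replicate 1, PP121 replicate 1 or PP121 replicate 2 (edgeR log2 differences of 0.58, 0.70 and 0.09). The SLC5A7 call was kept in DESeq2 (adjusted p = 0.000960) and lost whenever 1 sample was left out, which also drops the treatment term (log2 differences from -2.02 to -1.34, adjusted p from 0.0561 to 0.745). Markers of mesenchymal cells, all 13 of 13 detected in neurons, summed to 152 and 164 CPM in the day 42 samples and to 200 and 230 CPM in the day 38 samples, and their part in these differences was not tested. Mesenchymal nuclei themselves numbered 40 and 33 on day 42 and 408 and 422 on day 38.

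In progenitors (Progenitor 1 and 2 summed), CHAT and ACHE passed the filter and SLC18A3 and SLC5A7 did not. CHAT rested on 7 to 34 UMIs per sample, at 2.64 and 0.745 CPM in control replicates 1 and 2 and 1.00 and 0.840 CPM in PP121 replicates 1 and 2. Its log2 fold change of PP121 over control was -0.90 (edgeR adjusted p = 1.00), where 0 of 20260 genes were called (0%), 39 by DESeq2. ACHE was 7.60 and 9.80 CPM in control replicates 1 and 2 and 12.2 and 4.94 CPM in PP121 replicates 1 and 2, with a log2 fold change of -0.03. The PP121 samples thus enclosed the controls. With the block, 1.72% of genes were called in progenitors and neither of the 2 was. Between the days, 2.99% of genes were called in progenitors, and neither CHAT (log2 difference 0.98, edgeR adjusted p = 0.441) nor ACHE (0.33, edgeR adjusted p = 0.677) was.

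The difference of the PP121 effect between neurons and progenitors was fitted as an interaction. The neuron and progenitor sums of a sample share a library but were fitted as independent. Progenitors held 0 to 3 SLC18A3 UMIs and 4 to 23 SLC5A7 UMIs per sample, so the estimates for these genes lie near the floor. None of 21787 genes was called (0%), and the log2 interaction was 0.34 for CHAT, 1.89 for SLC18A3, -1.59 for SLC5A7 and -0.22 for ACHE (edgeR adjusted p = 1.00 for each). Over all annotated nuclei 0 of 24123 genes were called without the block (0%), 50 by DESeq2, and 0.883% with it. CHAT over all nuclei was 11.8, 7.81, 9.18 and 2.57 CPM in the 4 samples in the same order, with a log2 fold change of -0.73 (edgeR adjusted p = 0.931) and with the block -0.87 (edgeR adjusted p = 0.202).

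Of 67 further genes of cholinergic biology and of other transmitters, in 9 lists, 54 passed the filter in neurons. None was called for PP121 without the block. With it 12 were called higher and 6 lower, beside 14.8% of all genes (7.97% higher and 6.86% lower). The median log2 fold change of the 54 was 0.10, against -0.01 for all genes. Between the days 5 were higher and 11 lower on day 42, with a median of -0.04 against 0.01. Of all genes 9.49% were called there (3.68% higher and 5.81% lower). The single lists are too short to be set apart from these shares. All lists were chosen with earlier results of these data known, so these counts cannot show an excess over all genes.

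Choline supply, which feeds CHAT with its substrate, had 2 genes called higher and 1 lower of 10 with PP121 under the block. Of all genes 7.97% were higher and 6.86% lower. SLC44A5, a member of the choline transporter-like family, was 223 and 234 CPM in control replicates 1 and 2 and 302 and 356 CPM in PP121 replicates 1 and 2. It rose by 0.56 with the block (edgeR adjusted p = 7.47e-05), with no overlap of the groups, as for 22.5% of all genes in that direction. Between the days, beside 5.81% of all genes, 3 genes of this list were lower on day 42. Among them were PCYT1B (log2 difference -0.99, edgeR adjusted p = 0.000317) and SLC44A3 (-0.74, edgeR adjusted p = 0.00845). Of 5 genes of acetyl-CoA supply and 3 of breakdown and anchoring, none was called in either fit.

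Among receptors, 1 of 8 nicotinic subunits and 2 of 3 muscarinic receptors that passed the filter were called higher with PP121 under the block. None was called lower. Of all genes 7.97% were higher and 6.86% lower. CHRNA7, which encodes a nicotinic subunit that forms homomeric receptors, was 35.9 and 49.1 CPM in control replicates 1 and 2 and 51.1 and 60.2 CPM in PP121 replicates 1 and 2 (log2 fold change with the block 0.44, edgeR adjusted p = 0.00806). Between the days, beside 5.81% of all genes, 3 nicotinic subunits were lower on day 42. They included CHRNA5, an accessory nicotinic subunit, at 17.8 and 20.9 CPM on day 42 and 31.7 and 34.5 CPM on day 38 (log2 difference -0.84, edgeR adjusted p = 6.28e-05). None of 3 genes of receptor assembly was called with PP121, and 1 was higher on day 42, beside 3.68% of all genes.

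Of 9 transcription factors listed for cholinergic neurons, 4 were called higher and 2 lower with PP121 under the block. Of all genes 7.97% were higher and 6.86% lower. The 2 lower factors, named after their values were seen, were GBX2 (13.5 and 4.69 CPM in controls, 8.61 and 1.48 CPM with PP121) and MNX1 (9.87 and 7.21 CPM in controls, 6.71 and 3.65 CPM with PP121). PBX3, a homeobox factor, was 368 and 426 CPM in control replicates 1 and 2 and 459.5 and 667 CPM in PP121 replicates 1 and 2, again without overlap of the groups (22.5% of all genes). It rose by 0.52 with the block (edgeR adjusted p = 0.00022), and LHX4 rose by 0.79 (edgeR adjusted p = 0.000676). TAC1, which encodes substance P of excitatory enteric neurons, was 4.27 and 13.4 CPM in controls and 13.8 and 34.8 CPM with PP121 (log2 fold change with the block 1.56, edgeR adjusted p = 2.08e-07).

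Of 11 genes of other transmitters, 2 were called higher and 3 lower with PP121 under the block. Of all genes 7.97% were higher and 6.86% lower. SLC17A6, whose pattern over subtypes was among the 5 most like that of SLC5A7, was 18.1 and 38.7 CPM in control replicates 1 and 2 and 41.1 and 58.0 CPM in PP121 replicates 1 and 2 (log2 fold change with the block 0.92, edgeR adjusted p = 1.83e-05). GAD2, found in most neurons with CHAT, was 118 and 60.2 CPM in controls and 107 and 33.1 CPM with PP121 (log2 fold change with the block -0.42, edgeR adjusted p = 0.0205). Between the days GAD2 was higher on day 42 by 1.25 on the log2 scale (edgeR adjusted p = 5.88e-08) and GAD1 by 0.72 (edgeR adjusted p = 0.0002), the direction of CHAT, and SLC17A6 had a difference of -0.84, the direction of SLC5A7.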

How the data were processed

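Nuclei of 2 control and 2 PP121 samples were profiled with 10x Genomics 3' chemistry. The deposited files hold whole UMI counts per gene and nucleus, made by the authors and not normalized. The methods of the study name kallisto and bustools for counting, whereas the submitters' processing notes list Cell Ranger, GRCh38 and Seurat 4.0.4. The deposited metadata gave the cell class, subtype, transmitter identities and day. Nuclei that the authors marked as filtered were left out, which removed 10494 of 25306. A column of sample names in the metadata disagreed with the control labels, and the labels were used. How reads were assigned to strands and introns is not given in the sources used here.

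Counts were summed per sample and unit and given as CPM of that unit. These are 3' counts, so levels were compared within a gene. Shares carry exact Clopper-Pearson intervals of 95%, and 3 counts set the limit behind a 0; both cover counting error alone. Sums of neurons, progenitors and all annotated nuclei were fitted with edgeR 4.0.16 (filterByExpr, TMM, quasi-likelihood test, Benjamini-Hochberg 0.05; R 4.3.3), with 2 residual degrees of freedom, or 1 with the replicate block. DESeq2 1.42.0 was an alternative. Numbers mark a shared day, and same-numbered samples deviated together (correlation 0.421 in neurons, 0.284 in progenitors, 0.532 in all nuclei). With 2 samples per group, p-values of the fits without a replicate term measure the spread between these differentiations of 1 line. In the blocked and day fits the replicate term takes out what same-numbered samples share. Their p-values therefore rest on 1 residual degree of freedom per gene and on variation that the fits share across genes. They do not measure the spread between differentiations. The fits were tested on simulated counts. Nothing was tested between classes, identities or subtypes. Alternatives left out each sample, the low-count filter, or doublet candidates (6% of nuclei by a simulated-doublet score), replaced the deposited classes by joint clusters (2000 variable genes, 18 components), or changed the thinning.

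The members and lists were chosen with earlier results of these data known. Named beside the members were the 12 listed genes with the smallest p among those called in a neuron fit at a mean of at least 10 CPM, and for each member the 5 genes of highest correlation. 1 of the 12 is not reported here.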

Additional observations from a re-analysis of the deposited data

Results flagged for a closer look

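In 4 settings the PP121 minus control difference had opposite signs on the 2 days. In each, 1 sample stands on either side, and the difference between the days was not tested. SLC5A7 in enteric neurons was 2.20 CPM higher with PP121 on day 42, and on day 38 the difference was -7.41 CPM. ACHE in progenitors had differences of 4.58 CPM on day 42 and -4.86 CPM on day 38. CHAT in cholinergic neurons had differences of 2.44 CPM and -16.7 CPM. ACHE in cholinergic neurons had differences of 0.527 CPM and -3.28 CPM. These were looked for where both samples of each day held at least 30 UMIs together.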

How the results depend on the processing

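The number of genes called for PP121 depended on the replicate block and on the tool. In neurons 0 genes became 3152 with the replicate block, 80 in DESeq2, 618 in DESeq2 with the block and 69 without the filter, and 0 to 1402 when 1 sample was left out. In progenitors 0 became 349 with the block, 39 in DESeq2, 110 in DESeq2 with the block and 270 without the filter, and 0 to 168 when 1 sample was left out. Over all nuclei 0 became 213, 50, 291 and 1 in the same order, and 0 to 8. Blocked fits added after seeing the data gave 2567 genes in neurons, 466 in progenitors and 301 in all nuclei without doublet candidates, 1793 and 703 (neurons, progenitors) in joint clusters, and 1376 over every deposited nucleus. Between the days 2015 genes in neurons became 0 without a treatment term, 430 in DESeq2 and 2 to 271 when 1 sample was left out, and 606 in progenitors became 0, 172 and 2 to 1031. The cause was not tested.

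CHAT kept its sign for PP121 under the 13 alternatives in neurons (log2 -1.57 to -0.036) and was called in 3. Among the 4 genes the replicate block changed no call but that of CHAT in neurons. SLC18A3 in neurons turned to 0.028 in joint clusters and 0.0050 with the block added, and ranged from -0.72 to 0.40 when 1 sample was left out (all nuclei -1.35 to 0.30). SLC5A7 in neurons turned to 0.094 with the block without doublet candidates and ranged from -1.08 to 1.23 when 1 sample was left out. Over all nuclei it turned to 0.025 with the block, 0.051 in DESeq2 with the block, 0.12 without doublet candidates and 0.21 over every deposited nucleus, both with the block, and ranged from -0.87 to 1.11. Leaving out 1 sample moved ACHE from -0.76 to 0.43 in progenitors and from -0.66 to 0.085 in all nuclei, and between the days from -0.18 to 0.23 in neurons and from -0.11 to 0.90 in progenitors. It moved the interaction from -0.75 to 0.84 for CHAT and from -0.59 to 0.42 for ACHE, and GAD2 in neurons from -1.36 to 0.27.

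The PP121 minus control difference in the share of neurons with a UMI turned to 0.0628 points for SLC18A3, 0.209 for SLC5A7 and 0.00928 for ACHE when thinned to 1000 UMIs. For SLC5A7 it was 0.0391 without thinning and 0.366 within day 42 under the replicate block. Leaving out 1 sample gave -0.108 to 0.0359 points for SLC18A3, -0.710 to 0.691 for SLC5A7 and -16.9 to 6.21 for the cholinergic share. By share after thinning, SLC18A3 was higher in nitrergic than in other neurons in 25% of samples, SLC5A7 higher in cholinergic than in other neurons in 25% (also 25% without doublet candidates) and ACHE higher in neurons than in Progenitor 1 in 50%. Depth limits SLC18A3 most, with 5 to 23 molecules in the neurons of a sample.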

Other observations

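Nuclei that the authors filtered out also held member molecules. CHAT had 152 and 66 UMIs in the filtered nuclei of control replicates 1 and 2 and 94 and 10 in those of PP121 replicates 1 and 2. SLC5A7 had 17, 35, 27 and 27 UMIs (1.11, 3.84, 3.25 and 4.53 CPM). SLC18A3 had 31, 7, 11 and 0 (2.03, 0.768, 1.33 and 0 CPM).

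Among neurons assigned to G1 phase, SLC5A7 was 16.6 ± 13.6 CPM (SD, n = 4), against 2.61 ± 0.742 CPM in S phase and 4.57 ± 1.22 CPM in G2M phase. The spread in G1 was wide, from 4.79 to 35.2 CPM. Phases were the deposited calls, and the order was not tested.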
